A study of Mus musculus with 6 samples.

Results

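The cone phototransduction cascade was examined in retinal RNAseq of 5XFAD mice. Its 10 genes, Opn1sw, Opn1mw, Arr3, Gnat2, Gnb3, Gngt2, Pde6c, Pde6h, Cnga3 and Cngb3, were taken by gene symbol from the 19401 genes listed in the 6 libraries, of which 17705 carried an Entrez identifier. All 10 were listed in every library, and all 10 passed the filter on low counts (at least 10 counts in at least 3 libraries), together with 15527 other genes. The rule that names them uses their symbols and no measured value, though it was written with earlier results of these data known.

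Both groups were 9-month-old 5XFAD mice, which model the amyloid pathology of Alzheimer's disease and are hemizygous for mutant human amyloid precursor protein and mutant human presenilin 1. They were of the F1 generation on the B6SJL background, and carried neither the rd8 mutation of Crb1 nor the rd1 mutation of Pde6b. The transgenes are driven by the Thy1 promoter, which is active in neurons. EFV-treated mice received efavirenz (EFV), an anti-HIV drug that at a small dose activates the cholesterol-eliminating enzyme CYP46A1, in drinking water from 3 to 9 months of age. The labels give the dose as 0.08 mg/kg of body weight, and the methods of the study state a slightly higher one. Control mice drank water with the same vehicle, Tween 80. There were 3 libraries per group. A pool of 5 to 6 mice, males by the account of the study, went into each one, with a single retina plus retinal pigment epithelium (RPE) per mouse. The spread between libraries is therefore a spread between pools, and wild type mice or single animals were not analysed here. The comparison asks whether EFV treatment was accompanied by a change in the RNA of the cone cascade.

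In cones, light changes the shape of an opsin, which switches on a heterotrimeric G protein, cone transducin. Transducin removes the inhibitory subunit from a phosphodiesterase that then breaks down cyclic GMP, and cyclic GMP-gated channels in the outer segment close. Arrestin ends the signal by binding to the activated opsin. Rods use a parallel set of proteins made from other genes, and cones are a small minority of photoreceptors in the mouse, where most cones hold both opsins in amounts that differ between dorsal and ventral retina.

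The proximal promoters of 3 members are shown because each holds a match to a short motif of photoreceptor or core promoter regulation. RefSeq windows (GRCm38.p6, the patched form of mm10) were at hand for 6 of the 10 members, namely Opn1sw, Opn1mw, Arr3, Gnat2, Pde6h and Cnga3, the last with 2 start sites. The other members were Gnb3, Gngt2, Pde6c and Cngb3. The 250 bases before the start site are printed 5′ to 3′ on the strand of the gene, and capitals mark a match, on either strand, to TAATCC (the core bound by the photoreceptor homeobox factor CRX), TATAAA (the TATA box) or AGGTCA (the half-site of nuclear receptors). The positions are chr6:29380514-29380763 on the minus strand for Opn1sw, chrX:74127216-74127465 on the plus strand for Opn1mw and chr3:108092816-108093065 on the plus strand for Gnat2. The Gnat2 window belongs to a start site within the annotated span of the gene. The bases after this start were not found in the GENCODE transcripts of Gnat2, while those of the other cone windows were found in theirs.
Opn1sw: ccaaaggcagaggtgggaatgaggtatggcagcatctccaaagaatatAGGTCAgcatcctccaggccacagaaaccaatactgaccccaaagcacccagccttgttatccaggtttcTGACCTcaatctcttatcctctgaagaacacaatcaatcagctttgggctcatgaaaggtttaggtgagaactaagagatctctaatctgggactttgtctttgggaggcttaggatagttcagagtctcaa
Opn1mw: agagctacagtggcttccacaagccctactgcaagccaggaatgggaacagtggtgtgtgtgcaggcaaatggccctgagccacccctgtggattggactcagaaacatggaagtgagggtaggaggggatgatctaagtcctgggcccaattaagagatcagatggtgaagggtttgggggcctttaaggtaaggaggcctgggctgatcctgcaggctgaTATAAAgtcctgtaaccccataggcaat
Gnat2: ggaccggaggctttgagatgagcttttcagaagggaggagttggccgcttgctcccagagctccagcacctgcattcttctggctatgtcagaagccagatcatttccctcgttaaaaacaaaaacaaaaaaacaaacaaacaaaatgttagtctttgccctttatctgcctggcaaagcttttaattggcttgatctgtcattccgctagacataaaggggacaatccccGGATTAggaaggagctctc
Opn1sw held AGGTCA 202 bases before the start and its reverse complement 132 bases before the start. Opn1mw held TATAAA 28 bases before the start, and Gnat2 held the reverse complement of TAATCC 19 bases before the start. The only other match among the members was the reverse complement of TATAAA in 1 of the 2 Cnga3 windows, 122 bases before the start. Of all 32851 windows of this length, 6.25% held TAATCC, 12.4% TATAAA and 14.0% AGGTCA on either strand. The TAATCC core was thus found in 1 of 6 cone genes with a window and in 4 of 6 rod counterparts with a window (Sag, Gngt1, Cnga1 and Cngb1). The start sites of the rod windows were not checked against transcripts, and that of Gnat2 did not pass this check. A match is a description of the letters in the window and no evidence of binding.

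The libraries held 23455167 to 24590278 counts, of which the 10 cone genes took 0.134% to 0.153%. Defining markers of rods (7 of 7) and cones (6 of 6) were present in every library. A pair of libraries stood apart. In control 3, 7 lens genes summed to 406 FPKM, against 5.16 to 18.8 FPKM in the other 5 libraries. In EFV 3, 4 Y-linked genes (Ddx3y, Uty, Kdm5d and Eif2s3y) summed to 25.2 FPKM, against 51.9 to 69.8 FPKM in the other 5. The sum of 8 RPE markers was 29.3 to 57.2 FPKM in control and 50.5 to 64.3 FPKM in EFV-treated mice, with the lowest value in control 2. Before adjustment, 2 of 8 RPE markers were higher (1.49% of all genes tested) and 6 of 6 lens genes tested were lower (1.55% of all genes tested) in EFV-treated mice at a p of 0.05 in edgeR, and none of the tested markers of Müller, bipolar, ganglion, amacrine and horizontal cells or microglia passed. The parts of lens RNA, RPE RNA and the makeup of the EFV 3 pool in the cone values were not tested, and values without control 3 and EFV 3 are given below where they matter.

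No difference was detected for any of the 10 cone genes between EFV-treated and control mice with a test that takes the spread between pools into account. At an adjusted p of 0.05 (edgeR's quasi-likelihood test with Benjamini-Hochberg adjustment over the 15537 genes tested), 0 of 10 were called, with a background of 0.0%, and all 10 had an adjusted p of 0.999. At an unadjusted p of 0.05, 0 of 10 were called, with a background of 3.04% (1.55% lower and 1.49% higher). DESeq2 likewise called 0 of 10 at an adjusted p of 0.05, with a background of 0.0708%. A Poisson model, the kind of test the study used and one that takes no account of the spread between pools, called 4 of 10 (Opn1sw, Gnb3, Gngt2 and Pde6c) at an adjusted p of 0.05, with a background of 13.1%. The study set a fold change cut-off and a p of 0.05, with no adjustment named. The model run here had no fold change cut-off, and at an unadjusted p of 0.05 it called the same 4. The study's own list of differentially expressed genes holds none of the 10 members, and the cause of this difference was not tested. Of the related lists below, the study's list holds Pde6g and Esrrb, both lower after EFV, and Guca1b, higher. By direction, 7 members were lower and 3 (Opn1mw, Arr3 and Cngb3) higher in EFV-treated mice, where 49.5% of all genes tested were lower. By mean FPKM, Gnat2 and Pde6h, which count as lower here, were slightly higher in EFV-treated mice. The median log2 fold change of the members was -0.018, against 0.0012 over all genes tested. The fold changes ran from -0.13 for Gngt2 to 0.04 for Opn1mw on the log2 scale. The 95% intervals of the 10 members reached from -17.9% to 23.6%, so 3 pools a group leave room for changes within these bounds. Whole tissue was sequenced, so fewer cones and less RNA per cone cannot be told apart.

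**Figure D1:**
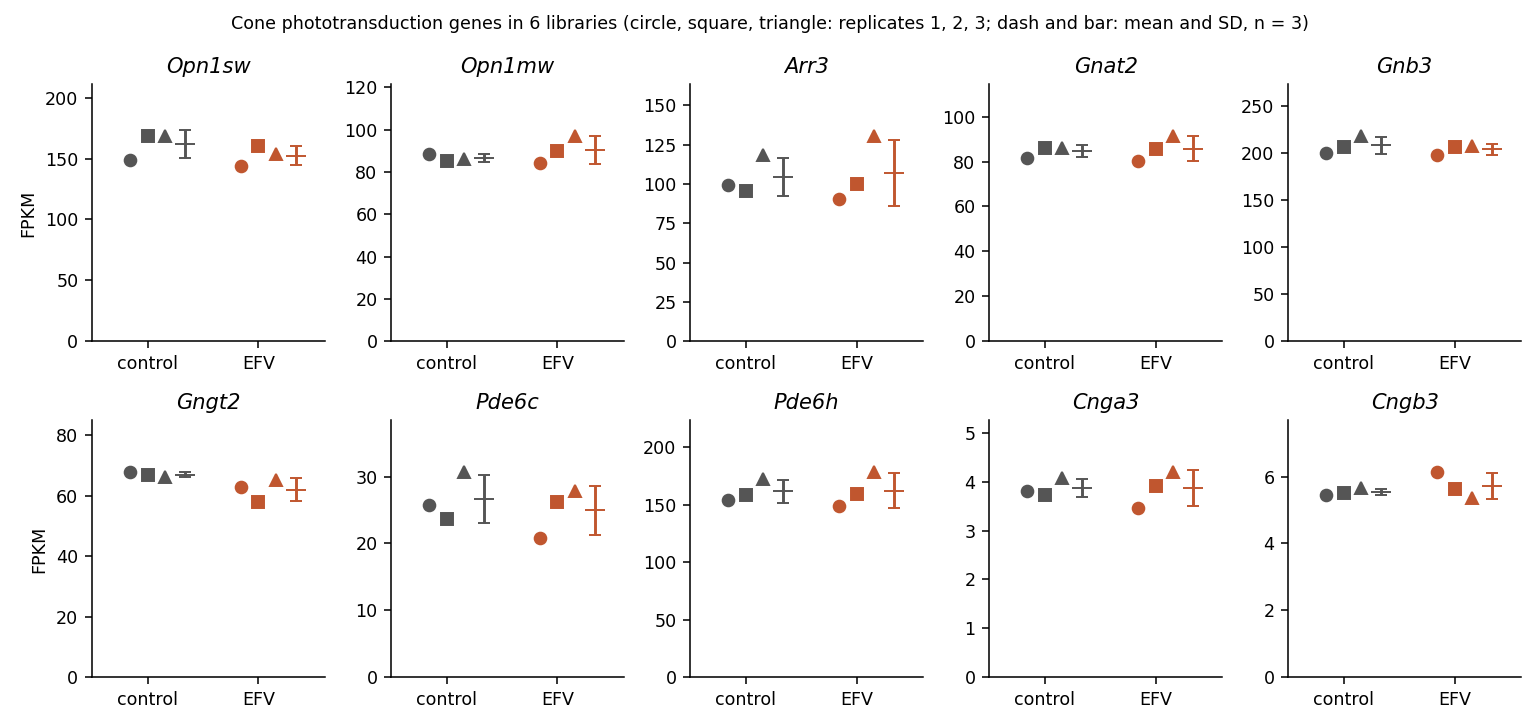
FPKM (fragments per kilobase of transcript, scaled to library size) of each cone gene in the 3 control (grey) and 3 EFV-treated (orange) libraries; each panel has its own vertical axis, which starts at 0, and the dash and bar give the mean and SD. The groups overlapped for 9 genes, and for Gngt2 the 3 EFV-treated libraries, at 58.0 to 65.2 FPKM, lay below the 3 control libraries, at 66.3 to 68.0 FPKM.

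The visual pigments differed in level and, slightly and within the spread, in direction. Opn1sw, the short-wavelength opsin (Entrez 12057, mm10 chromosome 6, 29376671 to 29380513), measured 149, 169 and 168 FPKM in control 1, 2 and 3 and 144, 160 and 153 FPKM in EFV 1, 2 and 3. The means were 162 ± 11.5 FPKM in control and 152 ± 7.98 FPKM in EFV-treated mice (SD, n = 3). Control 1 and EFV 1 were both low, and the groups overlapped. The log2 fold change of Opn1sw was -0.10 (SE 0.068, 95% interval -0.26 to 0.05), with an unadjusted p of 0.163 in edgeR. Without control 1 it was -0.17 with an unadjusted p of 0.0253 and an adjusted p no lower than 0.995, and this was 1 of 2 single libraries whose removal brought a member past the unadjusted threshold.

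Opn1mw, the medium-wavelength opsin (Entrez 14539, chromosome X, 74127466 to 74150756), measured 88.5, 85.1 and 86.4 FPKM in control and 84.3, 89.97 and 97.1 FPKM in EFV-treated mice. The control libraries lay close together (86.7 ± 1.70 FPKM, SD, n = 3), and the EFV-treated libraries reached from below to above them (90.5 ± 6.44 FPKM). The log2 fold change was 0.04 (SE 0.052, 95% interval -0.07 to 0.16). Opn1mw is X-linked and was highest in EFV 3, the library with the low Y-linked genes, and without that library its log2 fold change was -0.0045. Arr3, also X-linked, was highest in EFV 3 too. So were Gnat2, Pde6h and Cnga3, which lie on autosomes, though the spread of Cnga3 was no larger than counting error gives. Without EFV 3 the log2 fold changes of Gnat2, Pde6h and Cnga3 were -0.062, -0.085 and -0.058. A part of the makeup of the pool was not tested.

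The ratio of Opn1sw to Opn1mw was 1.68, 1.98 and 1.95 in control and 1.71, 1.78 and 1.58 in EFV-treated mice. Its mean was 1.87 ± 0.166 in control and 1.69 ± 0.101 in EFV-treated mice (SD, n = 3), a difference of -0.14 on the log2 scale, and the groups overlapped because control 1 lay below EFV 1 and EFV 2. The exact permutation test over libraries, two-sided, gave p = 0.3, where 3 against 3 libraries cannot go below 0.1. Opn1sw RNA thus stood above Opn1mw RNA per length in 6 of 6 libraries, with no difference between the groups beyond the spread.

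**Figure D2:**
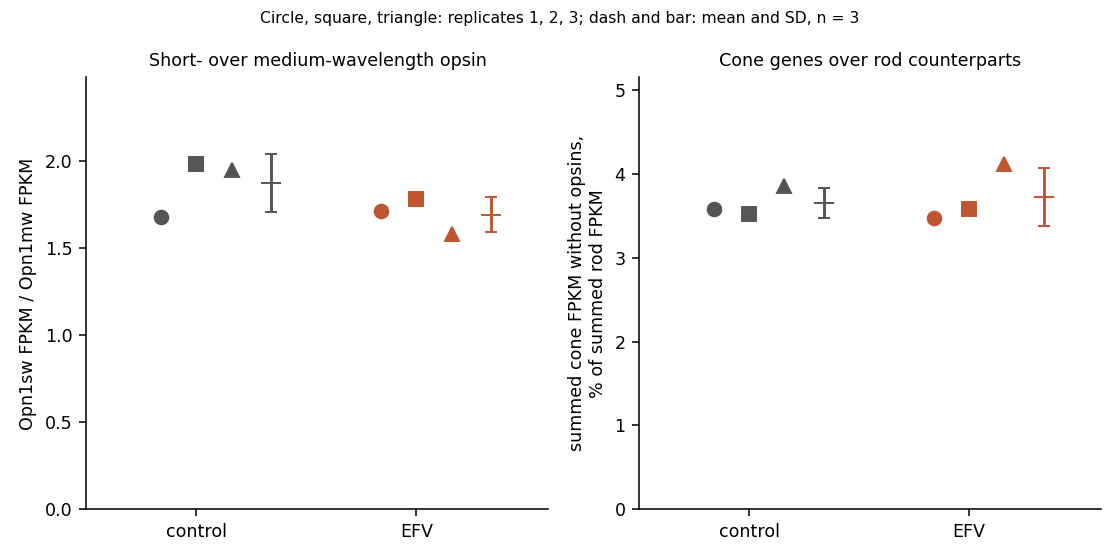
Left, FPKM of Opn1sw over FPKM of Opn1mw per library; right, summed FPKM of the 8 cone genes other than the opsins as a percentage of the summed FPKM of 9 rod counterparts; both axes start at 0, and the dash and bar give the mean and SD (n = 3). The opsin ratio lay between 1.58 and 1.98 and the cone share between 3.47% and 4.12%, with overlapping groups in both.

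Arr3, cone arrestin, which quenches the activated opsin (Entrez 170735, chromosome X, 100605480 to 100618493), varied most among the members. It measured 99.5, 95.3 and 118 FPKM in control and 90.6, 100 and 131 FPKM in EFV-treated mice, so that control 3 and EFV 3 were the high libraries of their groups. The groups overlapped (104 ± 12.1 and 107 ± 20.8 FPKM, SD, n = 3), and the log2 fold change was 0.02 (SE 0.126, 95% interval -0.26 to 0.31). Arr3 is X-linked as well. Its log2 fold change was 0.12 without control 3, -0.14 without EFV 3 and -0.04 without both, none of them past the unadjusted threshold, so the sign of the Arr3 value changed with the libraries kept. Counts of Arr3, scaled to the library (CPM, or counts per fixed library size), had a coefficient of variation of 14.0% over the 6 libraries, where counting error alone gives 1.73%. That was above 96.2% of the 10513 genes with a mean of at least 10 CPM, for which the median was 5.22%.

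The transducin subunits relay the signal from opsin to phosphodiesterase. Gnat2, the alpha subunit that carries GTP (Entrez 14686, chromosome 3, 108086788 to 108101432), measured 81.5, 86.1 and 86.1 FPKM in control and 80.1, 85.8 and 91.4 FPKM in EFV-treated mice. Its groups overlapped around nearly the same mean (84.6 ± 2.66 and 85.8 ± 5.67 FPKM, SD, n = 3), and its log2 fold change was -0.02 (SE 0.059, 95% interval -0.15 to 0.12). Gnb3, the beta subunit (Entrez 14695, chromosome 6, 124834240 to 124840275), which ON bipolar cells express too, was the most abundant member at 200, 206 and 218 FPKM in control and 197, 206 and 207 FPKM in EFV-treated mice. It also had the smallest coefficient of variation of the members (3.88%), with overlapping groups and a log2 fold change of -0.04 (SE 0.050, 95% interval -0.16 to 0.07).

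Gngt2, the gamma subunit that anchors transducin to the membrane (Entrez 14710, chromosome 11, 95841772 to 95845734), was the member with the lowest p. It measured 68.0, 66.8 and 66.3 FPKM in control and 63.0, 58.0 and 65.2 FPKM in EFV-treated mice. All 3 EFV-treated libraries lay below all 3 control libraries (67.0 ± 0.838 and 62.1 ± 3.69 FPKM, SD, n = 3), and EFV 2 was the lowest. This was the only 1 of 10 members whose groups did not overlap, and over all genes tested 8.14% did not overlap, with 4.18% lower in EFV-treated mice. The log2 fold change was -0.13 (SE 0.060, 95% interval -0.27 to 0.0025), with an unadjusted p of 0.0536 and an adjusted p of 0.999 in edgeR. Without EFV 3 the log2 fold change was -0.17 and the unadjusted p 0.033, and without both control 3 and EFV 3 they were -0.18 and 0.0484, while the adjusted p stayed at or above 0.995. Gngt2 shares 115 of its 866 exonic bases with Abi3 on the opposite strand, and whether the counting used strand is not given in the sources used here. Abi3 was listed at 0.37 to 1.09 FPKM with a log2 fold change of 0.14 (unadjusted p of 0.67 in edgeR).

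The levels of the 3 subunits were unequal in every library. Gnb3 stood at 2.27 to 2.53 times Gnat2, and Gnat2 stood above Gngt2 in 6 of 6 libraries, per length. The ratio of Gnat2 to Gngt2 was 1.26 ± 0.0546 in control and 1.38 ± 0.104 in EFV-treated mice (SD, n = 3), and the groups overlapped because EFV 1 lay below control 2 and 3.

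**Figure D3:**
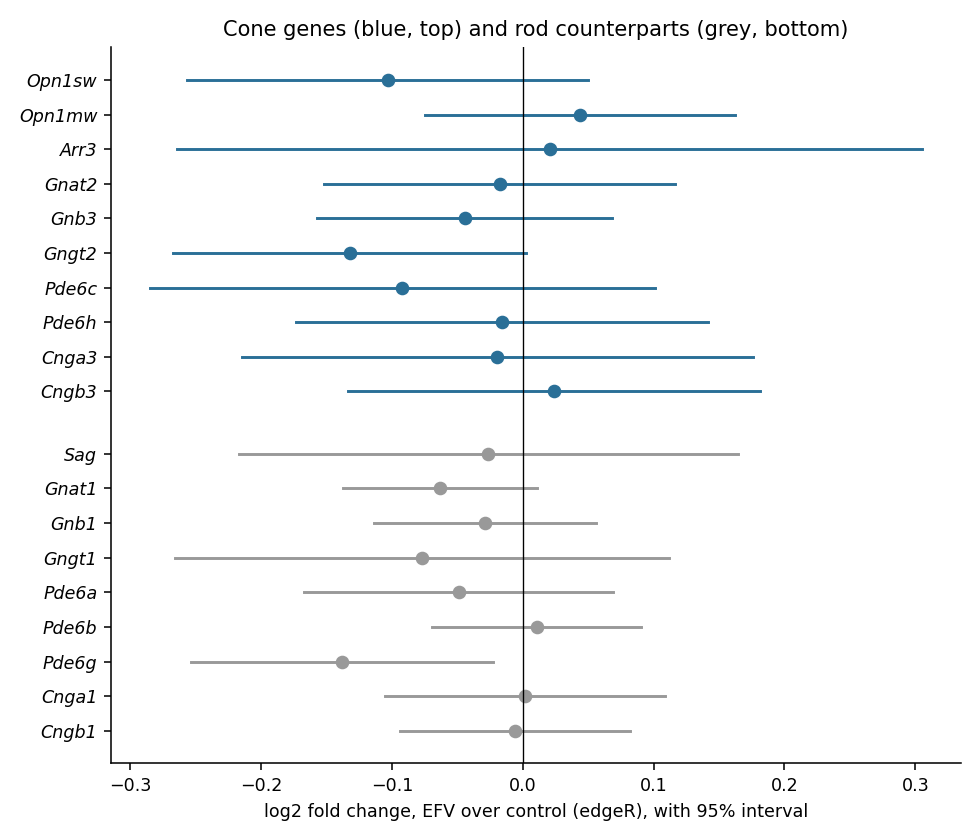
Log2 fold change of EFV-treated over control mice with its 95% interval, from edgeR, for the 10 cone genes (blue) and 9 rod counterparts (grey). The interval of each cone gene crosses 0, and among the rod genes that of Pde6g lies below 0 before adjustment.

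Phosphodiesterase lowers cyclic GMP. Pde6c, its catalytic subunit (Entrez 110855, chromosome 19, 38132781 to 38183955), measured 25.7, 23.7 and 30.7 FPKM in control and 20.8, 26.1 and 27.9 FPKM in EFV-treated mice. EFV 1 was the lowest library and control 3 the highest, the groups overlapped (26.7 ± 3.61 and 24.9 ± 3.68 FPKM, SD, n = 3), and the log2 fold change was -0.09 (SE 0.085, 95% interval -0.29 to 0.10). Without EFV 1 the log2 fold change was 0.0014. Pde6c was the second most variable member, with a coefficient of variation of 9.26%. Its FPKM also depend on the transcripts assigned to it, since the weighted length of its 4 transcripts ran from 3946 to 4424 bases between libraries.

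Pde6h, the inhibitory subunit that transducin displaces (Entrez 78600, chromosome 6, 136952218 to 136963485), measured 154, 158 and 173 FPKM in control and 149, 159 and 179 FPKM in EFV-treated mice. Replicate 3 was the highest of each group, the means were alike (162 ± 9.81 and 162 ± 15.1 FPKM, SD, n = 3), and the log2 fold change was -0.02 (SE 0.070, 95% interval -0.17 to 0.14). Inhibitory subunit RNA stood at 5.62 to 7.15 times that of the catalytic subunit per length. This ratio rests on the length of 574 bases given for Pde6h. In counts, Pde6h (1880 to 2220) lay below Pde6c (2230 to 2910).

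The channel subunits were the least abundant members. Cnga3, the alpha subunit (Entrez 12790, chromosome 1, 37218241 to 37263384), measured 3.80, 3.73 and 4.07 FPKM in control and 3.47, 3.91 and 4.20 FPKM in EFV-treated mice, with overlapping groups and a log2 fold change of -0.02 (SE 0.086, 95% interval -0.21 to 0.18). Its coefficient of variation over the 6 libraries (5.61%) was no larger than counting error gives (5.68%), so its libraries could not be told apart at this depth. Cngb3, the beta subunit (Entrez 30952, chromosome 4, 19280850 to 19510623), measured 5.45, 5.51 and 5.65 FPKM in control and 6.14, 5.63 and 5.36 FPKM in EFV-treated mice. EFV 1 was its highest library and EFV 3 its lowest, the control libraries lay between them, and the log2 fold change was 0.02 (SE 0.070, 95% interval -0.13 to 0.18). The ratio of Cngb3 to Cnga3 was 1.28 to 1.77, highest in EFV 1 and lowest in EFV 3.

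The order of levels per length was Gnb3 (206 FPKM, mean of 6 libraries), Pde6h (162), Opn1sw (157), Arr3 (106), Opn1mw (88.6), Gnat2 (85.2), Gngt2 (64.6), Pde6c (25.8), Cngb3 (5.62) and Cnga3 (3.86). The ranges over the 6 libraries overlapped between Pde6h and Opn1sw, between Arr3 and Opn1mw and between Opn1mw and Gnat2. Compared within a library, Arr3 stood above Opn1mw in 6 of 6, at 1.08 to 1.37 times its level. Pde6h stood above Opn1sw in 4 of 6 libraries and Opn1mw above Gnat2 in 5 of 6. The other neighbours held their order in 6 of 6 libraries with separate ranges. Among all 19401 genes, Gnb3 ranked 205 and Cnga3 10100 by mean FPKM.

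The members varied between libraries in a partly shared way that did not follow the groups. By FPKM, 8 of 10 were lowest in EFV 1, and the exceptions were Gngt2, lowest in EFV 2, and Cngb3, lowest in EFV 3. Replicate 3 held the highest value of 7 members: EFV 3 that of Opn1mw, Arr3, Gnat2, Pde6h and Cnga3, and control 3 that of Gnb3 and Pde6c. Cnga3 is in both counts, although its spread was no larger than counting error gives. The shares of all genes that were lowest in EFV 1 or highest in replicate 3 were not counted. Whether the pattern is particular to the cone genes was therefore not tested. When each member was standardized over the 6 libraries, the mean of the 10 was -0.38, 0.20 and 0.73 SD in control and -0.998, -0.045 and 0.50 SD in EFV-treated mice. EFV 1 was thus the low library and control 3 the high one, within groups that overlapped. Cngb3 had its highest value where the other members were mostly at their lowest. Its Pearson r of log2 CPM with the other members ran from -0.86 (Opn1mw) to -0.14 (Opn1sw). It was also weak with Gnb3 (-0.21) and Gngt2 (-0.28). The coefficient of variation of Cngb3, 5.11%, was not far above the 3.99% that counting error gives.

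**Figure D4:**
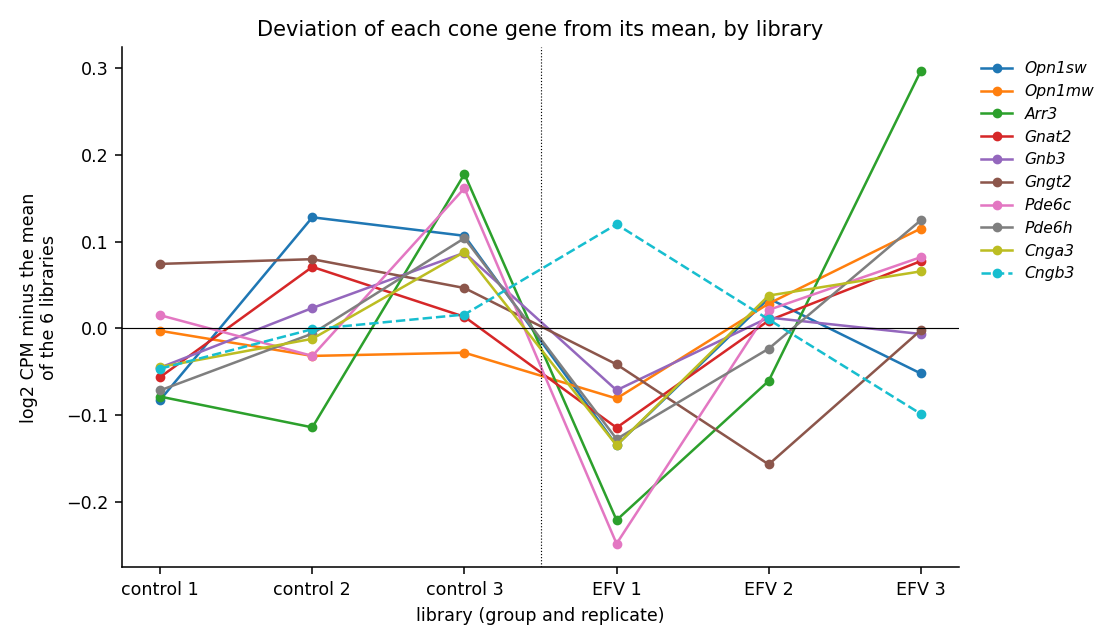
Log2 CPM of each cone gene minus its mean over the 6 libraries, by library; lines only join the points of one gene, Cngb3 is dashed, and replicates have no order. In EFV 1 the members other than Cngb3 lie below their means, and Arr3 reaches highest in EFV 3.

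The genes most like the cone profile were sought among the 15527 other genes tested, as the Pearson r over the 6 libraries of log2 CPM with the mean of the standardized members. The 5 closest were Eps8l1 (r = 0.999, 6.87 to 14.5 FPKM), Pi4k2b (0.976), Ptgfrn (0.972), Porcn (0.970) and Dgcr14 (0.969). With 6 libraries, 28 of the 15527 genes (0.180%) had an r of at least 0.95, and the points share the library and its scaling, so these values are a description only.

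Relative to the rods, the cone cascade was a small part of the phototransduction RNA. The 10 cone genes summed to 875, 900 and 956 FPKM in control and 839, 895 and 961 FPKM in EFV-treated mice. Without the opsins, the other 8 summed to 3.58%, 3.52% and 3.85% of the sum of 9 rod counterparts in control and to 3.47%, 3.58% and 4.12% in EFV-treated mice. The means were 3.65% ± 0.179 and 3.72% ± 0.348 (SD, n = 3), and the groups overlapped. EFV 3, the highest, combined the highest cone sum with the lowest rod sum. Gnb3 was the largest term of the cone sum (206 FPKM, mean of 6 libraries), and ON bipolar cells express it too. The percentage is therefore not a share of cones and rods alone.

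Pair by pair, the distance between cone and rod levels depended on the step. Gnat2 stood at 1.06% to 1.21% of Gnat1. The channel subunits were near this, with Cnga3 at 1.19% to 1.44% of Cnga1 and Cngb3 at 1.55% to 1.77% of Cngb1. Higher shares were found for Arr3 against Sag (2.79% to 4.14%), Pde6c against Pde6a (3.44% to 5.00%) and Pde6b (2.85% to 4.17%), Pde6h against Pde6g (6.21% to 8.18%), Gngt2 against Gngt1 (6.40% to 8.44%) and Gnb3 against Gnb1 (11.3% to 12.9%), the last a pair that other retinal cells express too.

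Related genes were counted in the same fit. Of the 9 rod counterparts, 7 were lower and 2 higher (median -0.03 on the log2 scale), and 1 passed an unadjusted p of 0.05, in the lower direction (background 1.55%). This was Pde6g, the rod inhibitory subunit, with 2456, 2546 and 2246 FPKM in control and 2242, 2248 and 2182 FPKM in EFV-treated mice. Its log2 fold change was -0.14 (SE 0.051), with an unadjusted p of 0.0244 and an adjusted p of 0.999 in edgeR, and leaving out control 1, control 2, EFV 1 or EFV 3 took the unadjusted p to between 0.0535 and 0.0902, and limma gave 0.198 to 0.336. Its cone counterpart Pde6h had a log2 fold change of -0.02, and the difference between the pair was not tested.

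Of 12 genes of response recovery and calcium feedback, which shut off the cascade and restore cyclic GMP, 0 passed an adjusted and 0 an unadjusted p of 0.05 in edgeR. Of these, 7 were higher and 5 lower (median 0.0060 on the log2 scale). The most abundant were Pdc, or phosducin, which binds transducin beta and gamma subunits (log2 fold change -0.26, SE 0.122, unadjusted p of 0.062 in edgeR), and Guca1a, the activator of guanylate cyclase that cones and rods share (0.07, SE 0.059). The Pdc value depended on the libraries: it was -0.13 without control 2 and -0.15 without EFV 1, and its unadjusted p in edgeR was 0.0281 without control 3, 0.0444 without EFV 2, 0.0265 without both replicates 3 and 0.0465 with no filter.

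Of 7 other cone-enriched genes, 6 were lower and 1 higher (median -0.08 on the log2 scale, where 49.5% of all genes were lower). The median depended on the setting: it was -0.018 to -0.017 with limma, -0.029 without control 3 and -0.029 without both replicates 3. With all 6 libraries, 1 gene passed an unadjusted p of 0.05 in edgeR, in the lower direction (background 1.55%). This was Kcne2, which encodes a potassium channel subunit, with 28.8, 30.2 and 29.98 FPKM in control and 27.7, 26.1 and 29.0 FPKM in EFV-treated mice. By FPKM, EFV 3 lay just above control 1. By CPM it lay just below (47.2 against 47.5), so that the groups did not overlap. Its log2 fold change was -0.12 (SE 0.053), with an unadjusted p of 0.0485 and an adjusted p of 0.999 in edgeR. Leaving out any one library other than control 1 or EFV 3 took its unadjusted p to between 0.0847 and 0.166. It was 0.0535 with upper quartile scaling, 0.091 with total counts, 0.052 with no filter, 0.053 without both replicates 3, 0.103 with DESeq2 and 0.0656 to 0.0706 with limma. Ccdc136, the most abundant of these genes, had a log2 fold change of -0.09 (SE 0.044, 95% interval -0.19 to 0.012). Its unadjusted p was 0.0763 and its adjusted p 0.999 in edgeR, and its groups did not overlap by FPKM or CPM. Over all genes tested, 4.18% were lower in EFV-treated mice without overlap by CPM.

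Of 8 photoreceptor transcription factors, 4 were higher and 4 lower (median -0.0037 on the log2 scale), and 1 passed an unadjusted p of 0.05 in the lower direction (background 1.55%). This was Esrrb, an orphan nuclear receptor of rods, with 121, 148 and 120 FPKM in control and 106, 113 and 112 FPKM in EFV-treated mice. The groups did not overlap, with control 2 far above the others, and the log2 fold change was -0.25 (SE 0.084, unadjusted p of 0.0139 and adjusted p of 0.999 in edgeR). Without control 2 it was -0.14, with an unadjusted p of 0.0263. Crx and Nrl, the factors that drive photoreceptor and rod gene expression, had log2 fold changes of -0.06 (SE 0.053) and 0.05 (SE 0.045).

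**Figure D5:**
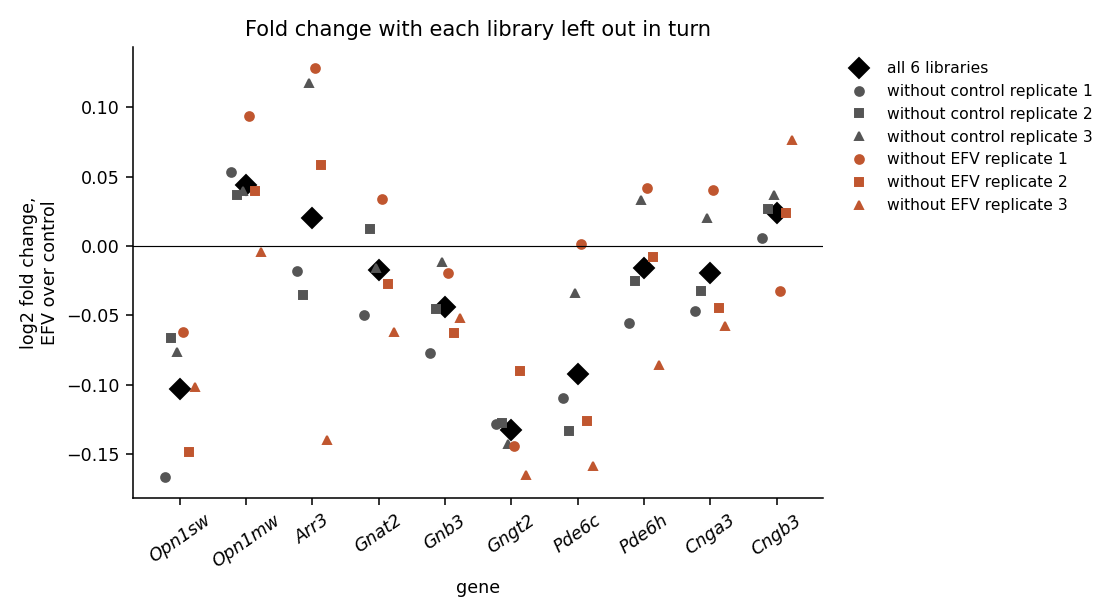
Log2 fold change of each cone gene with all 6 libraries (black diamonds) and after leaving out single libraries (grey for control, orange for EFV-treated; circle, square and triangle for replicates 1, 2 and 3). Opn1sw, Gnb3 and Gngt2 stay below 0 throughout, and the other 7 members change sign, Arr3 over the widest range, from -0.14 to 0.13.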

How the data were processed

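Poly-A RNA of 6 libraries had been sequenced. The deposited expected counts per gene were made by the authors with RSEM v1.2.12 from reads aligned with Bowtie2 v2.2.5 to mm10. HISAT2 v2.0.4 is also named in the submitters' processing notes, with no role. The deposited FPKM values were made by the authors from the same counts, divided by transcript length and library total. Strandedness and read filters are not given in the sources used here. Expected counts were rounded and tested in R 4.3.3 with edgeR 4.0.16 (quasi-likelihood test, TMM scaling, group as the only term, two-sided, at least 10 counts in at least 3 libraries). P-values were adjusted by the Benjamini-Hochberg method over 15537 genes. The biological coefficient of variation was 0.0983, and TMM factors ran from 0.984 to 1.01. FPKM served for levels between genes. The members and gene lists were chosen with earlier results of these data known. Named genes were all members, 9 rod counterparts, the 2 most abundant genes and those with an unadjusted p of at most 0.05 in each related list, the 5 genes with the most similar profile, and genes that overlap a member. Opn1sw also shares 5 of 2410 exonic bases with Calu on the opposite strand. Alternatives were RLE, upper quartile and total-count scaling, no filter, DESeq2 1.42.0, limma 3.58.1 on log2(FPKM + 0.1) and log2(FPKM + 1), a block for the replicate number, a Poisson model, and each library left out. Leaving out both replicates 3 was added after the data were seen. The fits were tested on simulated data. Xist was not analysed here, and 1 further gene is not reported here.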

Additional observations from a re-analysis of the deposited data

How the results depend on the processing

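Of the 170 values of the 10 cone genes under 17 alternatives, 145 kept their direction and their side of the adjusted threshold, and outside the Poisson model the lowest adjusted p of a member was 0.995. The Poisson model, which has no term for the spread between pools, called 4 cone genes at both the adjusted and the unadjusted p (Opn1sw, Gnb3, Gngt2 and Pde6c), with 2043 and 3901 calls over all genes, against 0 and 472 in edgeR. DESeq2 gave 11 and 270 calls over all genes. Leaving out one library in turn gave 0 to 1 cone genes at an unadjusted p of 0.05 and 0 to 1 genes in all at an adjusted p of 0.05, and leaving out both replicates 3 gave 1 cone gene, Gngt2. The 3 genes of the related lists became 1 with limma (each setting), 21 with the Poisson model, 1 to 4 with one library left out and 5 without both replicates 3. The sign of the log2 fold change turned for Opn1mw (-0.0092 without both replicates 3, -0.0045 to 0.093 with one library left out), Arr3 (-0.043 and -0.14 to 0.13), Gnat2 (0.018 with limma at either pseudocount and on all genes listed, -0.062 to 0.034 with one library left out), Pde6c (-0.16 to 0.0014), Pde6h (0.00011 with total counts, 0.0025 with limma, -0.085 to 0.042), Cnga3 (-0.058 to 0.040) and Cngb3 (-0.033 to 0.076), and, of the rod counterparts, for Sag (-0.03 in edgeR, 0.12 without both replicates 3, -0.096 to 0.093 with one library left out). The median of the members ran from -0.074 to 0.018. The cause was not tested beyond the libraries left out.

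The labels number the pools 1 to 3 in each group, and the deviations of same-numbered pools from their group means correlated with r = 0.125, 0.083 and 0.099, so not every pair passed 0.1 and the numbers were taken as names. Each library did correlate best with its own number, which is a hint from the data. With the replicate block, edgeR called 0 cone genes, 520 genes in all at an unadjusted p of 0.05 and 4 genes of the related lists, with an unadjusted p of 0.0136 for Pdc and 0.0641 for Kcne2, and 0 genes at an adjusted p of 0.05.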
